A study of Mus musculus with 36 samples.

Results

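The comparison described here set 6 arrays of unbound forebrain RNA from sleep deprived mice against 6 arrays of unbound forebrain RNA from spontaneously awake mice, 12 of the 36 arrays of the series. Members were taken by their sample titles, and all genes were described through 1 probe set each, the one with the highest mean over the 36 arrays. All 18 animals of the series were adult C57BL/6 mice heterozygous for Cnp–eGFP-L10a, a transgene in which the promoter of Cnp, a gene of myelin-forming oligodendrocytes, drives a tagged ribosomal protein. Ribosomes were pulled down through the tag from each forebrain, giving a bound fraction, and the unbound fraction is the RNA left behind, which the labels assign to neurons and glia other than oligodendrocytes. Waking animals were killed in the dark period between 3 and 5 am after at least 70% of the last 6 to 7 h awake. Sleep deprived animals had been awake for most of the night and were then kept awake for 4 h of the light period with new objects, and the labels do not state their hour of death. The groups therefore also differed in light phase and time of day, which cannot be told apart from enforced wake in these data. The sleep group, 6 mice killed asleep between 3 and 5 pm, entered the fit and serves as a reference.

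Staying awake past the usual sleep time raises plasma corticosterone, and the glucocorticoid receptor, once bound by the hormone, enters the nucleus and switches on target genes through DNA elements built from inverted repeats. Firing neurons switch on a first wave of immediate-early transcription factor genes and a later wave of effector genes that act at synapses. Circadian clock genes and chaperone genes are also known to follow wake, temperature and time of day in the forebrain. In whole-fraction RNA, fewer cells of a type and less RNA per cell cannot be told apart.

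Levels are log2 signals, so a difference of 1 is a 2-fold change, and precision is limited by the 6 arrays a group. Mean level over all probe sets was 6.41 in the sleep deprived arrays (range 6.41 to 6.42), 6.34 in the waking arrays (6.33 to 6.34) and 6.40 in the sleep arrays (6.39 to 6.42). The sleep deprived and waking arrays did not overlap and differed by 0.0764. This offset was known when the comparison was chosen and is given as a description. Array means were nearly equal within the sleep deprived and waking groups (SD 0.0034 and 0.0029) and spread more in sleep (0.0099). Whether the groups were normalized together is not stated, so a difference in RNA and one in normalization cannot be told apart. Across 13924 genes tested, the median change was 0.11 and 68.7% of genes lay above 0. Each change is therefore given as deposited and, where it matters, relative to the median gene, meaning after each array was centred on its median tested gene. Of all 13924 genes tested, 9291 were brighter in the unbound than in the bound fraction. So were all 12 neuron markers, 10 of 11 astrocyte markers and 9 of 9 microglia markers, against 0 of 10 oligodendrocyte markers. Oligodendrocyte messages were nevertheless bright in the unbound arrays, with a log2 summed marker signal of 14.4 to 14.7 across the sleep deprived and waking arrays. The array of waking animal 3 resembled its group least (median r over genes 0.958, other unbound arrays 0.967 to 0.981), and its summed cortical neuron markers stood at 11.72 against 12.33 to 12.50 in the other waking arrays and 12.45 to 12.64 after sleep deprivation. Sex-linked genes set apart 3 animals, waking 3, waking 5 and sleep deprived 11, whose Xist levels were 6.46, 6.72 and 6.75 against 4.00 to 4.79 in the other 9 arrays.

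Limma called 1384 genes (9.94%) at an adjusted p under 0.05, with 1177 higher (8.45%) and 207 lower (1.49%) after sleep deprivation. Relative to the median gene, 545 genes were called (3.91%), with 255 higher (1.83%) and 290 lower (2.08%), so the balance of directions turned with the centring. Quantile normalization over the 18 unbound arrays gave 560 calls (4.02%), 277 higher (1.99%) and 283 lower (2.03%). Of the calls as deposited, 460 were kept in the same direction relative to the median gene, 255 rises and 205 falls. As deposited, 21.6% of the 1393 brightest genes were called higher and 0.431% lower, and 3.80% were called in either direction relative to the median gene. At least 2-fold changes were found for 78 called rises and 31 called falls. Without the 3 animals set apart by sex-linked genes, 710 genes were called (5.1%), 605 higher (4.35%) and 105 lower (0.754%). Groups that did not overlap, array by array, were found for 759 genes (5.45%), 644 with sleep deprivation on top (4.63%) and 115 with waking on top (0.826%). At an unadjusted p under 0.05 in limma, 3028 genes were higher and 627 lower as deposited, and 1301 and 1330 relative to the median gene. Counts of list members at that threshold are to be read beside these.

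**Figure D1:**
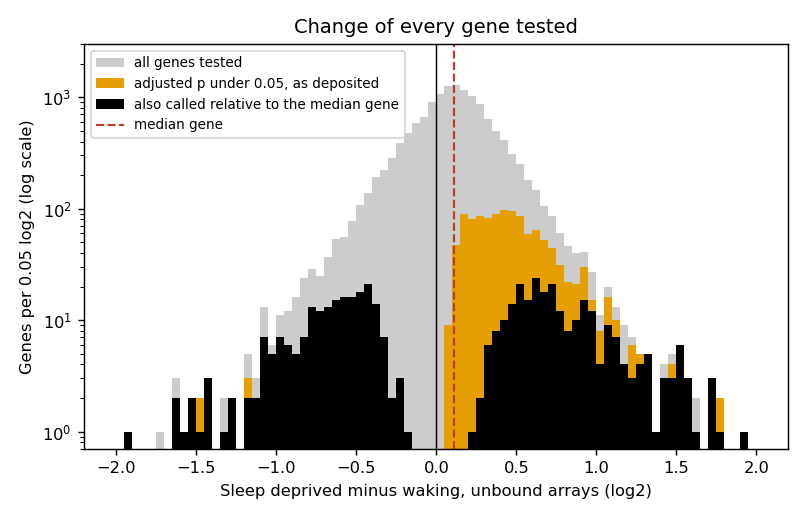
Histogram of the change of all 13924 genes tested, sleep deprived minus waking unbound arrays in log2, with the number of genes per bin on a log axis. Grey bars hold all genes, orange bars the 1384 genes called as deposited and black bars the 460 also called relative to the median gene, and the dashed line marks the median gene at 0.11, to the right of 0.

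Glucocorticoid response genes had the highest median change of the pathway lists. Of 20 members tested, 11 were higher after sleep deprivation and 0 lower as deposited (8.45% of all genes were higher), and 7 were higher and 0 lower relative to the median gene (1.83% of all genes). The median member changed by 0.55, or 0.44 relative to the median gene, and the arrays of the 2 groups did not overlap for 6 members (4.63% of all genes, sleep deprivation on top). Cdkn1a, a brake on the cell cycle, and Plin4, a coat protein of lipid droplets, rose more than 3-fold, and Sgk1, Fkbp5, Zbtb16, Tsc22d3 and Arrdc2 rose 1.81-fold to 2.70-fold. Of these, Cdkn1a, Plin4, Zbtb16 and Tsc22d3 were named by rule and the others after their values were seen. The list was drawn up with earlier results of these animals known, so its direction is no independent evidence.

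Cdkn1a read 10.24 at its lowest, 10.61 at its median and 11.00 at its highest sleep deprived array, and 8.87, 8.97 and 9.19 in waking. The groups were more than 1 log2 unit apart. The change was 1.64 ± 0.13 (SE, n = 6 per group, 3.11-fold, limma adjusted p = 5.87e-07), and a second probe set changed by 1.69. Plin4 read 7.33, 7.87 and 8.25 after sleep deprivation and 5.86, 6.05 and 6.55 in waking, again without overlap, for a change of 1.71 ± 0.16 (adjusted p = 2.92e-06). Plin4 was lower still in sleep, with a median of 4.93, so that the 3 groups formed a staircase. Zbtb16, a zinc finger repressor, spanned 9.89 to 10.42 (median 10.25) against 9.13 to 9.50 (median 9.38) and rose by 0.89 ± 0.11 (adjusted p = 0.000103). Its other probe sets changed by 0.89 and 0.06.

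Sgk1, the serum- and glucocorticoid-regulated kinase, is shown with its promoter because its sequence held a full palindromic receptor element. The motif searched was AGAACA, any 3 bases and TGTTCT, which reads the same on both strands. RefSeq promoters of the GRCm38.p6 assembly, 250 bases before to 50 after each start, held it in 3 of 32851 cases (0.00913%). Of the 6 Sgk1 promoters 1 had a match, 189 bases before the start at chr10:21993640-21993939 on the plus strand, with the match in capitals. It was the only match among the 17 members of the list with a promoter sequence, and these letters are a description, not a measured site.
Sgk1: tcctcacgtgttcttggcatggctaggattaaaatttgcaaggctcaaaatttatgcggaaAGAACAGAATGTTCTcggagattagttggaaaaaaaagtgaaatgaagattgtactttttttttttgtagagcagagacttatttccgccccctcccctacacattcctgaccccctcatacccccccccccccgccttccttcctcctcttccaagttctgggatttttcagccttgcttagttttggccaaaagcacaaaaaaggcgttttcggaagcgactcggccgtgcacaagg

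Sgk1 levels were 11.05 at the lowest, 11.93 at the median and 12.37 at the highest sleep deprived array, against 10.65, 10.80 and 10.92 in waking. Every sleep deprived array was above every waking array, but the sleep deprived arrays spread widely (SD 0.52, against 0.095 in waking). The change was 1.05 ± 0.17 (adjusted p = 0.00107). Fkbp5, a cochaperone that restrains the glucocorticoid receptor, ran from 8.69 to 9.84 (median 9.60) against 8.31 to 8.72 (median 8.51), with the lowest sleep deprived array inside the waking range and a change of 0.93 ± 0.20 (adjusted p = 0.00703). The mean of all probe sets of Fkbp5 changed by 0.47 and was not called (adjusted p = 0.0944). The same sleep deprived animal, replicate 7, gave the lowest values of Plin4, Sgk1, Fkbp5 and Tsc22d3. Tsc22d3, the glucocorticoid-induced leucine zipper, ran from 9.24 to 10.30 (median 10.03) against 8.98 to 9.25 (median 9.01) and rose by 0.86 ± 0.14 (adjusted p = 0.00105). Its other probe sets, all dimmer, changed by −0.18 to 0.58. Arrdc2, an arrestin-domain gene, rose by 1.43 ± 0.30 (adjusted p = 0.00726), with waking array 1 well below the rest at 5.19.

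A further 4 members were called only as deposited. Errfi1, an inhibitor of epidermal growth factor receptor signalling, had separate groups (10.23 to 10.51 against 9.71 to 9.95) and a change of 0.54, but its adjusted p relative to the median gene was 0.0586. The metallothionein gene Mt2 changed by 0.56 (0.0849 relative to the median gene), Nfkbia, an inhibitor of NF-kB, by 0.68 (0.116) and the transcription factor gene Klf9 by 0.23 (0.287). Nfkbia lost its call with any of 7 single arrays left out, the highest adjusted p being 0.0756 without sleep deprived animal 9. Without the 3 animals set apart by sex-linked genes, 8 of the 20 genes were called higher, and Errfi1 (adjusted p = 0.0643), Mt2 (0.0643) and Nfkbia (0.159) were not. The 9 members not called as deposited lay between −0.11 and 0.71, among them Sult1a1, a sulfotransferase gene, at 0.07 (adjusted p = 0.903, and −0.04 relative to the median gene). Errfi1, Mt2, Nfkbia, Klf9 and Sult1a1 were named after their values were seen.

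**Figure D2:**
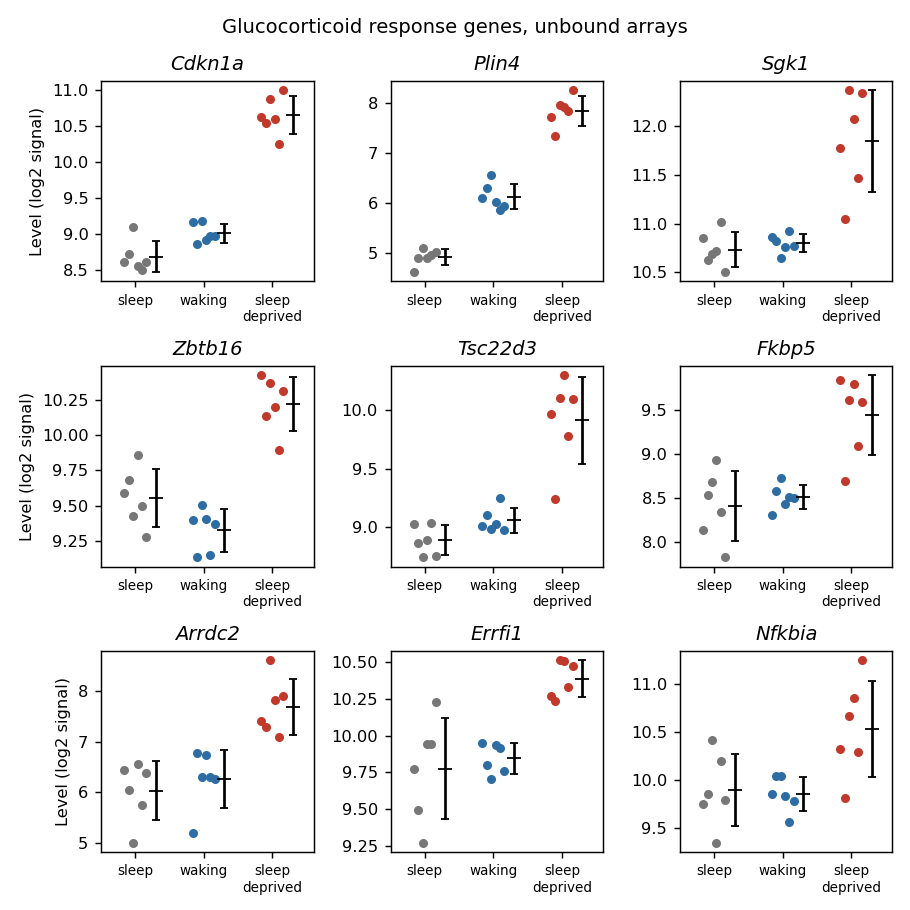
Unbound levels (log2 signal) of 9 glucocorticoid response genes in 6 sleep, 6 waking and 6 sleep deprived arrays, 1 point per array with the group mean and SD beside it; each panel has its own axis, which does not start at 0. Sleep deprived arrays of Cdkn1a, from 10.24 to 11.00, lie above all waking arrays, from 8.87 to 9.19, while those of Fkbp5 and Tsc22d3 overlap the waking range through 1 low array.

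Of 22 immediate-early transcription factor genes tested, 6 were higher and 0 lower as deposited (8.45% of all genes higher), and 5 were higher and 0 lower relative to the median gene (1.83%). After quantile normalization over the unbound arrays 3 were higher, with Ier5 (adjusted p = 0.0525) and Fosl2 (0.0609) not called. Without the 3 animals set apart 4 were higher, with Fosb (0.0533) and Fosl2 (0.0748) not called. Egr3, Fosb, Nr4a1, Ier5 and Fosl2 rose, and Nr4a2, an orphan nuclear receptor of dopamine neurons, was called only as deposited (0.36, adjusted p = 0.124 relative to the median gene). The median member changed by 0.31, or 0.20 relative to the median gene. Fosl2 and Nr4a2 were named after their values were seen.

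Egr3, a zinc finger factor downstream of neuronal firing, read 11.18 to 11.57 (median 11.28) after sleep deprivation and 10.26 to 10.68 (median 10.59) in waking. The groups were clearly apart and the change was 0.81 ± 0.09 (limma adjusted p = 5.12e-05). The other, dimmer probe set of Egr3 changed by 0.28. Fosb, a subunit of the AP-1 factor, read 8.41 at the lowest, 9.05 at the median and 9.18 at the highest sleep deprived array, against 5.62, 7.09 and 8.71 in waking. Waking animals thus spread over more than 3 log2 units, and 1 of them, animal 1, was inside the narrow sleep deprived range. Fosb rose by 1.73 ± 0.39 (adjusted p = 0.0094). Nr4a1, a nuclear receptor without a known natural ligand, ran from 9.09 to 9.82 (median 9.60) against 8.14 to 9.23 (median 8.78), overlapping at 1 waking array, and rose by 0.83 ± 0.19 (adjusted p = 0.0103). Ier5, a growth-factor-inducible nuclear protein, and Fosl2, another AP-1 subunit, rose by 0.47 and 0.59, Ier5 with groups just apart (10.96 to 11.38 against 10.29 to 10.95).

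The promoters of Fosb and Nr4a1 are shown because both genes are classic targets of calcium and cyclic AMP signalling through the factor CREB, whose core motif TGACG was searched on both strands (found as CGTCA on the other). That short motif stood in 20.8% of the 32851 RefSeq promoters, in 13 of the 17 immediate-early genes with a promoter sequence and in 3 of the 5 called ones with a sequence. The share counts promoters and the list counts are of genes with a match in any of their promoters, so they are unlike measures. Fosb (chr7:19309996-19310295, minus strand) held 1 match, 60 bases before the start. Nr4a1 (chr15:101266596-101266895, plus strand) held 4 matches between 233 and 40 bases before the start. Capitals mark the matches.
Fosb: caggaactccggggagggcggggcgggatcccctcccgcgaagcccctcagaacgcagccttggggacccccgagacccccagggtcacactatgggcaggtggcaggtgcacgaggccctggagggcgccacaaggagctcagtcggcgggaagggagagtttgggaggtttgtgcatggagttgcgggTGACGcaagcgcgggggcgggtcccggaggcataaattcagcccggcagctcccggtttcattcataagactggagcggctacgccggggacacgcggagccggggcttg
Nr4a1: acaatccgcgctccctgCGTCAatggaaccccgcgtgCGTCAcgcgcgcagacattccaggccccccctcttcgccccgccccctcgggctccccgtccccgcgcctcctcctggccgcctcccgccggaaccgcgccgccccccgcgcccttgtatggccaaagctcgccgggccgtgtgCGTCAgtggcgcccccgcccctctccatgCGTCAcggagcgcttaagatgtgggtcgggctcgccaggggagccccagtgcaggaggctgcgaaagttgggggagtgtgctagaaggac

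Changes of the 16 members not called ran from −0.79 for Btg2 to 1.09. Fos, the founding member, read 9.26 to 9.84 (median 9.43) after sleep deprivation and 8.41 to 10.05 (median 9.82) in waking, a change of −0.11 ± 0.26 (adjusted p = 0.84). Both groups were far above the sleep arrays, which ran from 6.44 to 7.73. Egr1 differed by 0.11 ± 0.09 as deposited (adjusted p = 0.458), and its sign turned to −0.002 after quantile normalization. Against sleep, Fos stood 2.58 higher after sleep deprivation and 2.68 higher in waking, and Egr1 0.92 and 0.81 higher, values that share the same sleep arrays. Fosb in contrast was 2.53 above sleep after sleep deprivation (adjusted p = 0.000443) and 0.80 above it in waking (adjusted p = 0.215). Btg2, an antiproliferative gene, was the lowest of the list at −0.79 (adjusted p = 0.0558), and Fos, Egr1 and Btg2 were named after their values were seen.

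Activity-induced effector genes gave 7 higher and 0 lower of 17 as deposited (8.45% of all genes higher), and 4 higher and 0 lower relative to the median gene (1.83%), with a median of 0.28 (0.17 relative to the median gene). For 5 of them the groups did not overlap (4.63% of all genes). The 4 kept genes encode secreted or synaptic proteins and an enzyme. Inhba, a subunit of the growth factor activin, read 10.28 to 11.37 (median 10.89) against 8.79 to 9.56 (median 9.26) and rose by 1.58 ± 0.19 (adjusted p = 6.19e-05). Its other, dimmer probe set changed by 0.67. Nptx2, a pentraxin secreted at excitatory synapses, read 9.24 to 9.73 (median 9.64) against 7.64 to 8.33 (median 8.19) and rose by 1.47 ± 0.13 (adjusted p = 2.4e-06). The other probe set of Nptx2, also dimmer, changed by 0.41. In Nptx2 it was the waking group that stood apart: the sleep arrays, from 8.99 to 9.53, were 1.14 above waking (adjusted p = 4.65e-05) and 0.33 below sleep deprivation (adjusted p = 0.134).

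Homer1, whose short activity-induced form uncouples the scaffold of glutamate receptors, read 11.94 to 12.25 (median 12.09) against 11.16 to 11.62 (median 11.48), with no overlap. Its change was 0.67 ± 0.09 (adjusted p = 0.000163), and 5 other probe sets of Homer1 changed by −0.08 to 1.22. Ptgs2, an inducible prostaglandin synthase, read 7.80 to 8.43 (median 7.96) against 5.50 to 7.42 (median 6.88) and rose by 1.33 ± 0.28 (adjusted p = 0.00727), its other probe set by 1.29. Nrn1, a neurite growth protein, Pim1, a kinase, and Rgs2, a brake on G protein signalling, were called only as deposited, at 0.21, 0.64 and 0.25. Without the 3 animals set apart Pim1 was not called (adjusted p = 0.057), and Rgs2 lost its call with any of 8 single arrays left out (at most 0.0931, without sleep deprived animal 9). Arc, a regulator of receptor endocytosis, overlapped fully (10.00 to 10.49 against 9.54 to 10.53, change 0.26, adjusted p = 0.343), although both groups were more than 2 log2 units above sleep. Arc, Nrn1, Pim1 and Rgs2 were named after their values were seen.

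**Figure D3:**
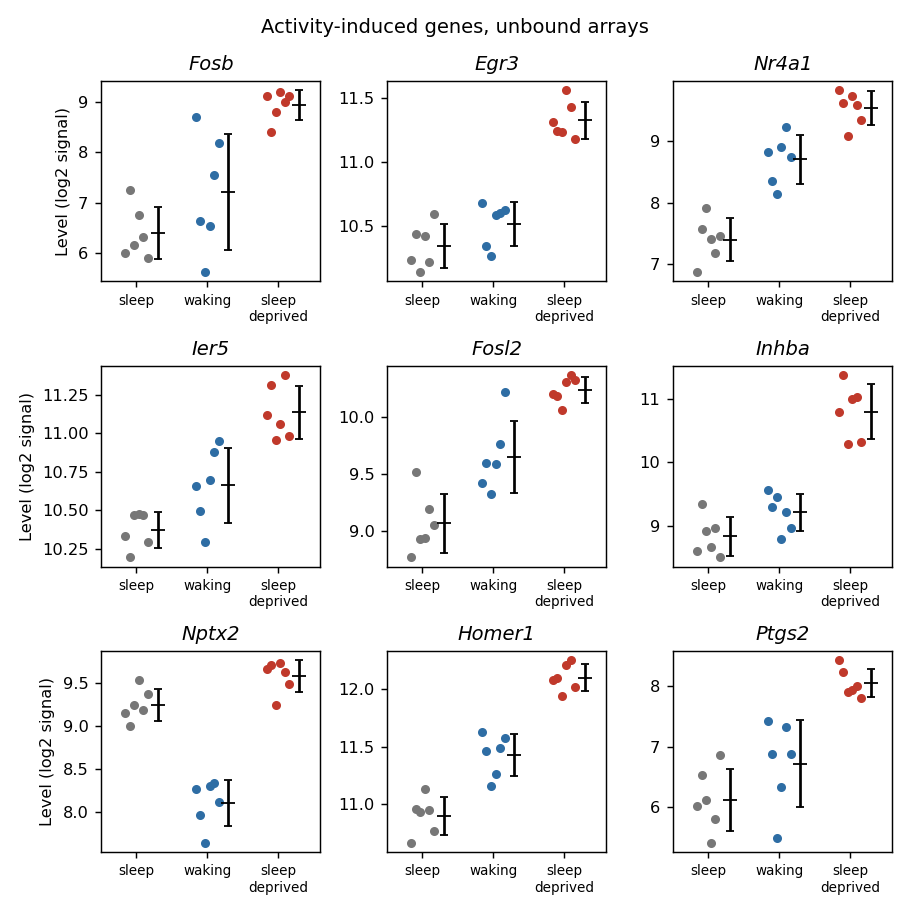
Unbound levels (log2 signal) of 9 activity-induced genes in 6 sleep, 6 waking and 6 sleep deprived arrays, 1 point per array with the group mean and SD beside it; each panel has its own axis, which does not start at 0. Fosb spreads from 5.62 to 8.71 in waking and from 8.41 to 9.18 after sleep deprivation, and Nptx2 is low in waking alone, at 7.64 to 8.33.

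MAP kinase brakes, the phosphatases and inhibitors that switch off growth factor signalling, gave 5 higher and 0 lower of 16 as deposited (8.45% of all genes higher). Relative to the median gene limma called 0, with 4 higher and 0 lower at an unadjusted p under 0.05. Dusp7 changed by 0.39, Dusp5 by 0.69, Spred3 by 0.92 and Spred2 by 0.27, and their adjusted p relative to the median gene ran from 0.0503 for Dusp5 to 0.298 for Spred2. Quantile normalization kept 1 call, Spred3 (adjusted p = 0.0468), and Spred2 lost its call with any of 8 single arrays left out (at most 0.0839, without sleep deprived animal 9). The arrays of the groups did not overlap for Dusp7, Dusp5 and Spred3 (4.63% of all genes). With the mean of all probe sets Dusp7 was not called (0.16, adjusted p = 0.308). Without waking animal 3 the count as deposited was 3, and without the 3 animals set apart it was 1.

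Of 19 clock genes, 2 were higher and 2 lower as deposited (8.45% and 1.49% of all genes). Relative to the median gene 0 were higher (2 at an unadjusted p under 0.05 in limma) and 2 lower (2.08% of all genes lower). Hlf, a clock output factor, read 10.75 to 11.39 (median 11.08) after sleep deprivation and 11.39 to 11.75 (median 11.56) in waking, touching at their edges, and fell by 0.48 (SE 0.10, adjusted p = 0.00537). Npas2, a partner of the clock protein Bmal1, fell by 0.44 (adjusted p = 0.0102), but its other probe set changed by 0.69, the mean of both probe sets by 0.12, and the call was lost without the 3 animals set apart (adjusted p = 0.0694). The repressor genes Bhlhe40 (0.35) and Cry2 (0.32) were called only as deposited, and in both waking animal 3 was the lowest array, at 9.95 and 10.59. Bhlhe40 lost its call with any of 2 single arrays left out and Cry2 with any of 3, and neither was called without the 3 animals set apart (adjusted p = 0.0806 and 0.0609).

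Among uncalled clock genes, Per2, a core repressor, read −0.23 (adjusted p = 0.569), Per1, of the same family, 0.33 (0.193) and Dbp, a clock output factor, −0.12 (0.634). Against sleep, Per2 was 1.31 higher after sleep deprivation and 1.54 higher in waking, and Dbp differed by −0.83 and −0.71, all 4 called. The mean of all probe sets of Per2 gave 0.09, the opposite sign. These 3 genes were named after their values were seen.

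Of 21 chaperone genes of the heat shock list, 12 were higher and 0 lower as deposited (8.45% of all genes higher), and 1 was higher and 0 lower relative to the median gene (1.83%). Changes ran from −0.28 to 1.22, with 3 members below 0. The median was 0.21, or 0.10 relative to the median gene. Hspd1, the mitochondrial chaperonin, was the 1 kept: it read 12.28 to 12.44 (median 12.43) against 11.96 to 12.20 (median 12.09), for a change of 0.33 ± 0.05 (adjusted p = 0.000367, and 0.0169 relative to the median gene). Hspa8, the constitutive cytosolic chaperone, had tight groups that did not overlap (13.83 to 13.94 against 13.64 to 13.71) and changed by 0.20, or 0.09 relative to the median gene (adjusted p = 0.126, and 0.00508 after quantile normalization), but the mean of its probe sets was not called (0.12, adjusted p = 0.412). The strongly inducible Hspa1b, named after its values were seen, had that largest change, 1.22 ± 0.35 (adjusted p = 0.0336, and 0.0858 relative to the median gene), with sleep deprived arrays from 7.61 to 9.20 and waking arrays from 6.30 to 7.75. Its call was lost with any of 6 single arrays left out (at most 0.0788, without sleep deprived animal 7). Over the heat shock list relative to the median gene, 9 members were higher and 0 lower at an unadjusted p under 0.05 in limma. Of all 13924 genes, 1301 were higher at that threshold. Without the 3 animals set apart, 11 members were called higher as deposited.

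Hspd1 is shown because its promoter held the heat shock element, written GAA, any 2 bases, TTC, any 2 bases and GAA and searched on both strands, which stood in 0.603% of the RefSeq promoters and in 4 of the 18 heat shock genes with a promoter sequence (4 of the 9 called ones). Here too the share is of promoters, and the list counts are of genes with a match in any promoter. Of the 2 Hspd1 promoters 1, chr1:55087883-55088182 on the minus strand, held 2 overlapping matches, 144 and 139 bases before the start, printed as 1 run of capitals.
Hspd1: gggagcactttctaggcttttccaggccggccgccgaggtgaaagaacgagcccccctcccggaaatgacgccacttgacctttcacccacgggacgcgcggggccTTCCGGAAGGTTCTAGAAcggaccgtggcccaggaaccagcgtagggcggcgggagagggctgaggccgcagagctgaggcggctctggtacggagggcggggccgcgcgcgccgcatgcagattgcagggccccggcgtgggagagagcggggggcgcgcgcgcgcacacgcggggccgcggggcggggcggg

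Endoplasmic reticulum folding genes gave 4 higher and 0 lower of 21 as deposited (8.45% of all genes higher). Relative to the median gene they gave 1 higher and 0 lower (1.83%). At an unadjusted p under 0.05 in limma as deposited, 13 were higher and 0 lower, beside 3028 higher of all 13924 genes. Hsp90b1, the chaperone of that compartment, read 11.90 to 12.31 (median 12.21) against 11.61 to 11.92 (median 11.80), with a small overlap, and rose by 0.41 ± 0.07 (adjusted p = 0.0011). Hspa5, its partner, changed by 0.47 ± 0.13 (adjusted p = 0.0276, and 0.12 relative to the median gene), and the calcium-binding Calr by 0.26 (0.0305 and 0.289). Both lost their call with any of 6 single arrays left out and without the 3 animals set apart (adjusted p = 0.0641 and 0.135). Genes of the ATF4 amino acid response gave 0 calls of 19 as deposited in limma (1 higher and 2 lower at an unadjusted p under 0.05). Relative to the median gene 1 of them fell (2.08% of all genes lower). It was Nars, a transfer RNA synthetase gene named after its values were seen, which fell by 0.19 (adjusted p = 0.0418). The mean of its probe sets as deposited stood at 0.03.

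Oxidative phosphorylation genes gave 14 higher and 0 lower of 28 as deposited (8.45% of all genes higher), with a median of 0.14 beside 0.11 over all genes, and 0 called relative to the median gene, with a median of 0.03 (5 higher and 2 lower at an unadjusted p under 0.05 in limma). Atp5a1, a subunit of ATP synthase and the member of smallest p, read 13.74 to 13.82 against 13.56 to 13.66 and changed by 0.16 as deposited (adjusted p = 0.000163) and 0.05 relative to the median gene (0.245). It was the 1 member called after quantile normalization (0.09, adjusted p = 0.024). Glycolysis, lactate and glycogen genes gave 2 higher of 21, Aldoa at 0.13 and Pgam1 at 0.15, and cholesterol genes 1 higher of 19, Hmgcs1 at 0.17, all 3 called only as deposited. The share of all genes called higher as deposited was 8.45%. Hmgcs1 lost its call with any of 6 single arrays left out (at most 0.0763, without sleep deprived animal 7). Cytosolic ribosomal protein genes gave 5 higher and 0 lower of 12 (8.45% of all genes higher). Of these, Rps14 was kept relative to the median gene (0.27 as deposited, adjusted p = 0.0223 relative to the median gene), where 1.83% of all genes were higher. Without waking animal 3, the oxidative phosphorylation count as deposited was 9, and without the 3 animals set apart it was 5.

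Glutamate and GABA receptor genes gave 0 calls of 30 as deposited in limma (1 higher and 3 lower at an unadjusted p under 0.05) and 1 lower relative to the median gene, Gabrg3, a GABA receptor subunit, at −0.48 (adjusted p = 0.0271, and −0.37 as deposited with 0.0541). Potassium channel genes gave 1 lower of 31 in both settings. Over all genes 1.49% were lower as deposited and 2.08% relative to the median gene. The channel gene called was Kcnj4, an inward rectifier, which read 6.32 to 6.71 (median 6.41) against 6.74 to 7.01 (median 6.89) and fell by 0.43 (adjusted p = 0.0305). Kcnj4 lost its call without the 3 animals set apart (adjusted p = 0.122) and with any of 6 single arrays left out (at most 0.0639, without sleep deprived animal 9). Relative to the median gene, an unadjusted p under 0.05 was found for 0 higher and 8 lower receptor genes and for 0 higher and 6 lower channel genes. Over all 13924 genes, that limma threshold was met by 1301 higher and 1330 lower. The medians of these lists, −0.05 and −0.03 as deposited, were −0.16 and −0.14 relative to the median gene. Synaptic vesicle and scaffold genes gave 3 higher of 16 as deposited (8.45% of all genes higher): Syn2, Bsn and Shank3, at 0.20 to 0.41. Relative to the median gene 0 were called, with 2 higher and 2 lower at an unadjusted p under 0.05. Bsn, a presynaptic scaffold, lost its call with any of 6 single arrays left out and Shank3, a postsynaptic one, with any of 3.

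Neuropeptide genes gave 2 higher of 19 as deposited. Over all genes 8.45% were higher as deposited and 1.83% relative to the median gene, shares that stand beside each list of this paragraph. Nts, the precursor of neurotensin, read 8.21 to 8.55 (median 8.35) against 7.04 to 7.99 (median 7.42), without overlap, and rose by 0.88 ± 0.15 (adjusted p = 0.00148, and 0.0063 relative to the median gene). Sst, the somatostatin precursor, changed by 0.35, was called only as deposited, and lost its call with any of 3 single arrays left out. Adenosine handling genes, of interest because adenosine accumulates in wake, gave 0 calls of 10 in limma (5 higher at an unadjusted p under 0.05), led by the transporter gene Slc29a2 at 0.81 (adjusted p = 0.0613). At that unadjusted threshold 3028 of all 13924 genes were higher. Interferon and antigen presentation genes gave 2 higher of 13, Irf9 at 1.31 and H2-K1 at 0.65, of which Irf9, an interferon signalling factor, was kept relative to the median gene. H2-K1 lost its call with any of 9 single arrays left out. Inflammatory mediators gave 0 calls of 5 tested (0 at an unadjusted p under 0.05), hypoxia and vascular growth genes 1 higher of 8 (Ndrg1, 0.54, as deposited only and lost with any of 6 single arrays left out), and the cold-inducible gene Cirbp stood at −0.10 (adjusted p = 0.697 in limma, unadjusted p also above 0.05).

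**Figure D4:**
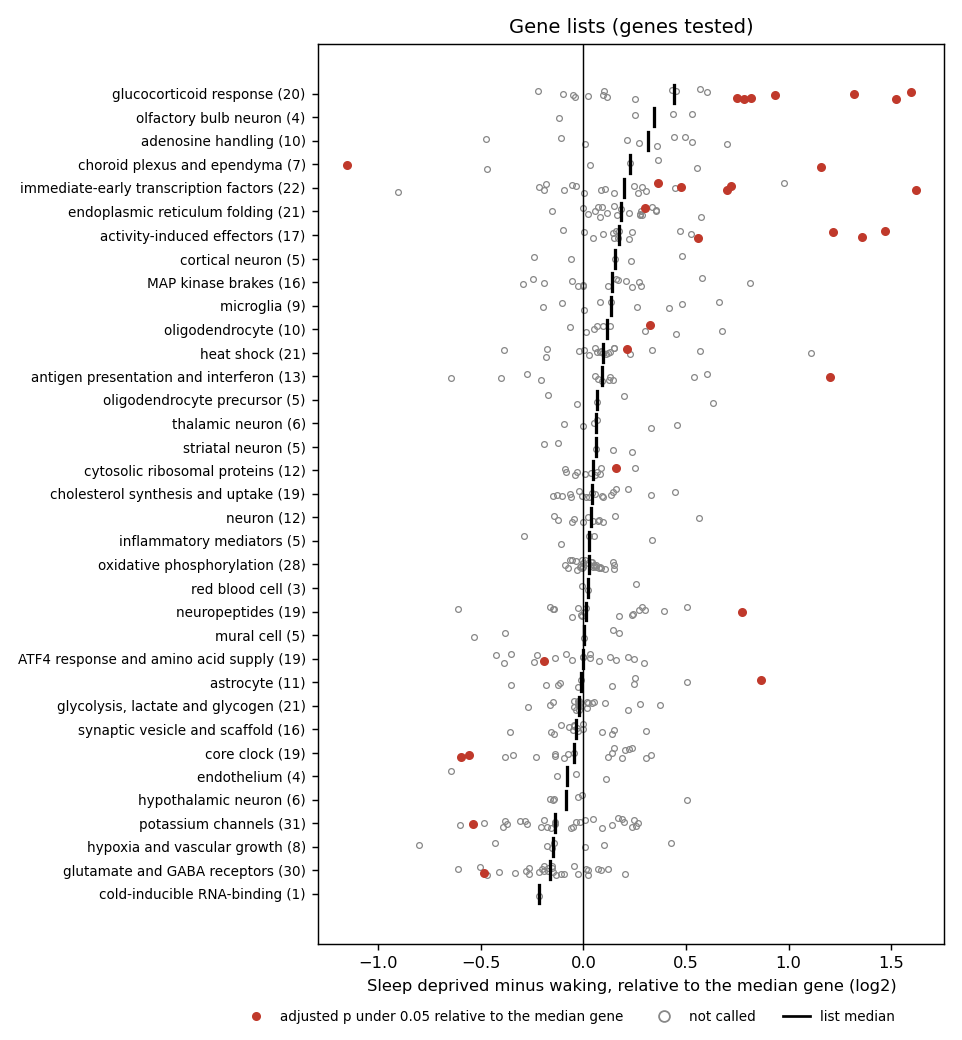
Change of each tested gene of the lists other than sex-linked genes, sleep deprived minus waking unbound arrays in log2 relative to the median gene, 1 circle per gene with the number of genes in brackets and lists ordered by their median (black bar). Red circles are called relative to the median gene; the glucocorticoid response list has the highest median, 0.44, with 7 red circles, and most other medians lie within 0.2 of 0.

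Markers of the cell types in the fraction were followed in the same way, beside 8.45% of all genes higher as deposited and 1.83% relative to the median gene. Neuron markers gave 4 higher of 12 as deposited (Nefm, Slc32a1, Tubb3 and Stmn2) and 0 relative to the median gene, where 2 were higher and 1 lower at an unadjusted p under 0.05, and the summed signal was 15.97 to 16.05 against 15.83 to 15.94. The 3 other probe sets of Slc32a1, the vesicular GABA transporter gene, changed by 0.03 to 0.17, against 0.68 for the one used. Stmn2 lost its call with any of 10 single arrays left out and Tubb3 with 1, sleep deprived animal 11. Oligodendrocyte markers gave 4 higher of 10 (Mobp, Mbp, Myrf and Mag), of which Mobp, a myelin protein gene, was kept (0.44 ± 0.08, adjusted p = 0.00347, and 0.0241 relative to the median gene). Mbp and Mag, both of myelin, and Myrf, a factor of myelin genes, lost their calls with any of 5, 9 and 9 single arrays left out. The summed signal of the 10 markers was 14.59 to 14.70 against 14.38 to 14.49 as deposited, without overlap, and its part in the other changes was not tested. Summed signals, those of neuron markers among them, were not centred and so include the offset of the median gene, 0.11. Astrocyte markers gave 1 higher of 11, Gjb6, a gap junction gene, which read 7.99 to 8.79 (median 8.44) against 7.10 to 7.88 (median 7.43) and rose by 0.97 ± 0.17 (adjusted p = 0.00178, and 0.00629 relative to the median gene). Summed astrocyte markers overlapped, at 14.08 to 14.35 against 13.85 to 14.25.

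Choroid plexus and ependyma markers gave 1 higher and 1 lower of 7 (8.45% and 1.49% of all genes). They were Foxj1, the master factor of motile cilia, at 1.27 ± 0.32 (adjusted p = 0.0181), and Kcne2, a channel subunit of choroid plexus, at −1.04 ± 0.20 (adjusted p = 0.00352). Foxj1 lost its call without the 3 animals set apart (adjusted p = 0.0913). The summed signal of these 7 markers overlapped (13.52 to 13.67 against 13.31 to 13.61). Microglia (9 tested), oligodendrocyte precursor (5), endothelium (4), mural (5), striatal (5), cortical (5), thalamic (6), hypothalamic (6) and red blood cell (3) markers gave 0 calls in limma, with 2, 1, 0, 0, 3, 1, 3, 1 and 1 higher and 0 lower at an unadjusted p under 0.05. Of all 13924 genes, 3028 were higher and 627 lower at that unadjusted threshold. Olfactory bulb markers gave 1 higher of 4, Th at 0.64, as deposited only and lost with any of 9 single arrays left out. Without the 3 animals set apart, 13 genes called only as deposited were not called (adjusted p = 0.0708 to 0.248): Slc32a1, Tubb3, Stmn2, Mbp, Myrf, Mag, Th, Sst, H2-K1, Ndrg1, Bsn, Hmgcs1 and Pgam1. With the mean of all probe sets, Slc32a1, Mbp, H2-K1, Ndrg1, Bsn, Syn2, Hmgcs1, Aldoa, Calr, Spred2 and Rgs2 were not called (adjusted p = 0.0678 to 0.449).

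The largest rises were led by genes outside these lists. Besides Cdkn1a, Plin4, Fosb, Inhba and Nptx2 they were Rnf138rt1 (1.92), the corepressor gene Skor1 (1.79), Ppp1r17, a phosphatase inhibitor (1.75), Dmkn, a secreted protein of epithelia (1.71), Prr5, a component of the mTORC2 complex (1.56), the galactosyltransferase gene B4galt1 (1.53) and Ky (1.52). All 7 had waking medians under 6, near or below the median probe set. Rnf138rt1 read 6.47 to 7.43 (median 7.01) after sleep deprivation and 4.59 to 6.31 (median 4.99) in waking, the highest waking array, animal 5, lying close below the lowest sleep deprived one (adjusted p = 0.000197). Dmkn read 7.03 to 7.49 (median 7.28) against 4.39 to 6.32 (median 5.70), with an adjusted p of 0.000674, and Prr5 6.53 to 8.12 (median 7.61) against 5.60 to 6.28 (median 5.78), with 0.000928. In these 3 genes every sleep deprived array exceeded every waking array (4.63% of all genes), which the choice of the largest rises favoured.

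B4galt1 and Ky showed the pattern of Nptx2, with waking as the low group. B4galt1 read 6.02 to 6.83 (median 6.18) after sleep deprivation, 4.55 to 4.96 (median 4.72) in waking and 5.19 to 7.25 (median 5.67) in sleep. Ky read 5.64 to 6.63 (median 5.91), 4.27 to 5.09 (median 4.46) and 5.30 to 5.62 (median 5.45) in that order. For both the waking level differed from sleep (adjusted p = 0.00904 and 0.00335), and Ky also stood 0.58 above sleep after sleep deprivation (adjusted p = 0.0452). Skor1 overlapped, with sleep deprived arrays from 5.30 to 7.78 and waking arrays from 4.50 to 5.59, and its other probe set changed by −0.11. Ppp1r17 was the least firm: its call was lost relative to the median gene (adjusted p = 0.0588), without the 3 animals set apart (0.199) and without any of 7 single arrays (at most 0.064, without sleep deprived animal 7).

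The largest falls were of Kcnq1ot1, a long noncoding RNA (−1.65), Pdlim3, an actin-associated protein (−1.57), the sialyltransferase gene St3gal1 (−1.54), Slc22a6, an organic anion transporter (−1.51), Phf7 (−1.47) and the protocadherin gene Pcdhb5 (−1.27). Fgfrl1 (−1.17), Trabd (−1.13), Cplane2, a gene of cilium formation (−1.09), Zfp688 (−1.06), the kinesin gene Kif1c (−1.06) and Mgat2, an enzyme of N-glycan synthesis (−1.06), followed. Slc22a6 was the clearest: 5.06 to 5.47 (median 5.31) after sleep deprivation and 6.55 to 7.25 (median 6.71) in waking (SE 0.18, adjusted p = 8.11e-05). Pdlim3 read 5.48 to 6.74 (median 5.90) against 7.20 to 8.46 (median 7.44), with waking animal 3 the highest (adjusted p = 0.00103). St3gal1 read 6.95 to 8.95 (median 8.29) against 8.99 to 10.48 (median 9.75), with an adjusted p of 0.00806 and a second probe set at −0.96. These 3 genes had no overlap between groups (0.826% of all genes, waking on top), which the choice of the largest falls favoured.

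Other probe sets went against several falls. All 5 other probe sets of Kcnq1ot1, which were dimmer, changed by 0.13 to 0.54, both other sets of Trabd by 0.26 and 0.47, the other set of Mgat2 by 0.10, and 2 of 3 other sets of Kif1c by 0.34 and 0.49. The mean of all probe sets was not called for these 4 genes (−0.008 for Kcnq1ot1, −0.13 for Trabd, −0.48 for Mgat2 and −0.22 for Kif1c). For Phf7, 3 of 4 other sets fell (−1.49 to −0.37) and 1 was at 0.60. Among the 156 genes called in both settings that had a second tested probe set, 101 moved the same way in it (64.7%), against 3492 of 6214 other genes (56.2%). Fgfrl1 lost its call with any of 7 single arrays left out, most without waking animal 3 (adjusted p = 0.0841), and Cplane2 without waking animal 6 (0.0507). Phf7 (0.0503), Fgfrl1 (0.135), Cplane2 (0.0744) and Mgat2 (0.138) were not called without the 3 animals set apart.

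The same contrast in the bound fraction of the same animals called 698 genes (5.01%), 375 higher (2.69%) and 323 lower (2.32%). A direct test of the difference between fractions, on the bound minus unbound value of each animal, called 671 genes (4.82%), 187 with a more positive change in the bound fraction (1.34%) and 484 with a more positive change in the unbound fraction (3.48%). These values are as deposited and include the unbound offset: the median gene changed by 0.111 in the unbound and 0.013 in the bound arrays. With each array centred on its median gene, the test called 475 genes. Cdkn1a, brighter after sleep deprivation in both, changed by 1.64 unbound and 3.75 bound (difference 2.12 ± 0.46, adjusted p = 0.0132), and Fkbp5 by 0.93 and 2.36 (1.43 ± 0.30, adjusted p = 0.00966). Of the glucocorticoid list, 9 of 20 were higher in the bound arrays. Plin4 and Sgk1 had the smaller bound change (0.73 and 0.47), and that difference was not called (adjusted p = 0.0506 and 0.0956).

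Several other named genes had a bound change near 0 or of the opposite sign, and a called difference. These genes were named by their unbound change or its p, and that change is also a term of the difference. A smaller bound change was thus favoured by the choice, and the called difference is no independent evidence. Fosb changed by −0.35 in the bound arrays (difference −2.08 ± 0.46, adjusted p = 0.015), Dmkn by 0.01 (−1.71), Prr5 by −0.11 (−1.67), Rnf138rt1 by −0.50 (−2.42), B4galt1 by −0.84 (−2.37), Irf9 by −1.29 (−2.60), Foxj1 by −0.64 (−1.90) and Gjb6 by −0.34 (−1.32). Pdlim3, which fell in the unbound arrays, changed by 0.63 in the bound arrays (2.20 ± 0.34, adjusted p = 0.00179). Kif1c, Zfp688, Pcdhb5 and Mgat2 were near 0 or above in the bound arrays (0.05 to 0.36), and for each the difference was called. Egr3, Inhba, Homer1 and Errfi1 had bound changes of 0.56 to 1.06, all called, and differences from the unbound change that were not called. Their differences were −0.19 ± 0.21, −0.52 ± 0.25, −0.11 ± 0.17 and 0.02 ± 0.15.

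**Figure D5:**
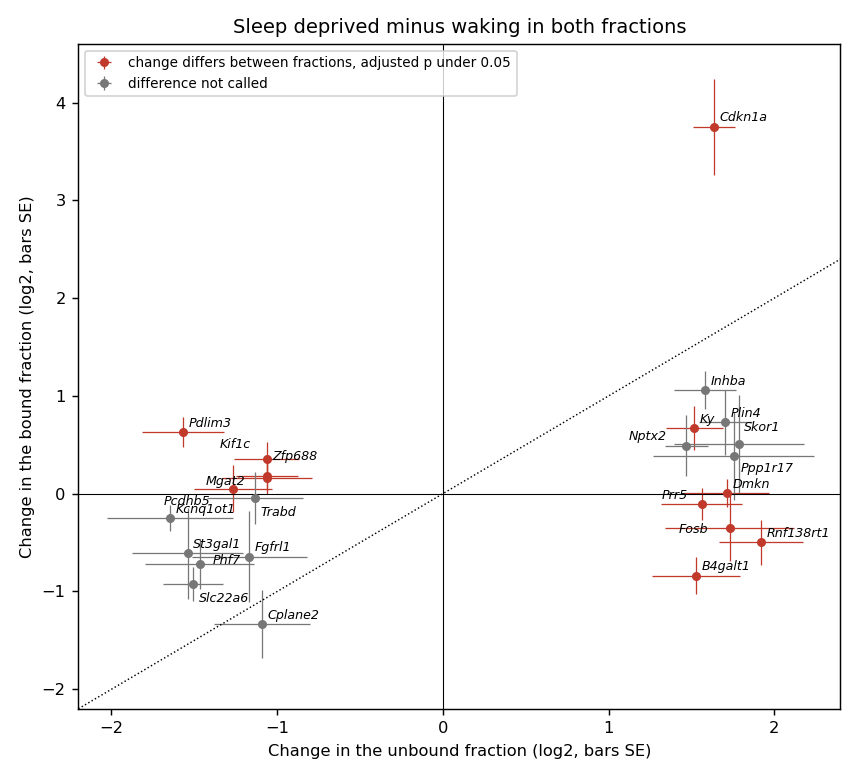
Change of the 12 largest called rises and 12 largest called falls of the unbound arrays (x axis, log2, sleep deprived minus waking) against the change of the same genes in the bound arrays (y axis, log2), with bars of 1 SE and equal change on the dotted line. The genes were chosen by their unbound change, which is also a term of the difference tested. Red genes differ between fractions at an adjusted p under 0.05; Cdkn1a lies above the line at 3.75 bound against 1.64 unbound, while Fosb, Rnf138rt1 and B4galt1 lie below 0 in the bound arrays.

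The sleep arrays show which awake group departed from sleep. Against them, 1089 genes were called after sleep deprivation (7.82%), 647 higher (4.65%) and 442 lower (3.17%), and 1004 in waking (7.21%), 207 higher (1.49%) and 797 lower (5.72%). The median gene stood 0.02 above sleep after sleep deprivation and 0.09 below it in waking. Of the 255 rises called in both settings, sleep lay nearer to waking for 151 and nearer to sleep deprivation for 104. Of those, 80 of the 151 differed from sleep in sleep deprivation only and 48 of the 104 in waking only, with 8 and 3 differing in both. Of the 205 falls, sleep lay nearer to waking for 128 and nearer to sleep deprivation for 77, with 82 and 43 differing from sleep in 1 group only in the same way. Sorting rises and falls by the nearer group in itself favours a difference from sleep in the farther group only. Cdkn1a, Sgk1, Fkbp5, Zbtb16, Egr3 and Inhba differed from sleep in sleep deprivation only: they stood 0.67 to 1.96 above sleep after sleep deprivation, all called, and −0.23 to 0.38 from sleep in waking, none called. Nptx2 and B4galt1 differed from sleep in waking only, 1.14 and 1.21 below it, and Ky in both groups, 0.94 below sleep in waking and 0.58 above it after sleep deprivation. Homer1 and Nr4a1 rose in steps, 0.53 and 1.30 from sleep to waking and 0.67 and 0.83 from waking to sleep deprivation, all called. These comparisons share arrays and are given side by side, not as independent evidence.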

How the data were processed

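RNA of the bound and unbound fractions of 18 forebrains, 6 per group, was hybridised to 36 one-colour arrays. The deposited values are log2 signals that the authors made with RMA, per the submitters' processing notes, with version and joint or separate normalization of groups not stated there; they were used as deposited. Of 45101 probe sets, 34945 named 1 gene, 932 several and 9160 none, and 64 were controls; those of several or no gene stayed unnamed. The probe set with the highest mean over the 36 arrays stood for each of 18193 genes, and the 13924 whose mean over the arrays of either fraction reached that fraction’s 40th percentile of all probe sets (4.47 bound, 5.18 unbound) were tested.

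limma 3.58.1 (R 4.3.3; trend = TRUE) fitted the means of the 3 unbound groups, and p-values were adjusted by Benjamini-Hochberg over all genes tested. The difference between fractions was fitted on the bound minus unbound value of each animal, which pairs the 2 arrays of an animal. The labels call the animals separate replicates, and waking and sleep deprived animals were different ones. On simulated data of 13924 genes, 84% of changes of 1 and 36% of changes of 0.5 were recovered, with 10 false calls among genes given no change. The simulated noise was independent between genes and held no offset between groups, so it does not give the rate of false calls in these arrays.

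Named were the 12 largest rises and 12 largest falls among called, characterised genes with a level of at least 6 in the higher group, and up to 4 called members (or the 1 of smallest p) of each of 36 gene lists (519 genes, 472 on the array, 453 tested). The 36th list, sex-linked genes, gave 0 calls of 4 in limma (0 at an unadjusted p under 0.05). The comparison, the members and the lists were chosen with earlier results of these data known. Promoters came from the RefSeq tables of GRCm38.p6. Alternatives covered centring, quantile normalization, the filter, the probe set, the arrays fitted, the trend, single arrays and the 3 animals set apart by sex-linked genes.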

Additional observations from a re-analysis of the deposited data

Results flagged for a closer look

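For 115 named genes the 6 arrays of either group were screened for 1 array far from the rest, meaning a gap to its nearest neighbour above Dixon's critical value for 6 samples; chance gives about 1 such group in 20, and 230 groups were screened. Waking animal 3, whose array correlated least with its group, stood apart in 10 genes. It was the low array of Bhlhe40 (9.95), Cirbp (9.38), Cry2 (10.59), the dopamine receptor gene Drd1 (8.71), Fos (8.41), Pgam1 (13.04), Shank3 (9.26) and the microglia gene Tmem119 (4.66), and the high array of Fgfrl1 (8.94) and Pdlim3 (8.46). Other waking arrays stood apart in Arrdc2 (animal 1, 5.19), Ddit3 (animal 4, 9.25), Per2 (animal 4, 9.28), Ky (animal 5, 5.09), Rnf138rt1 (animal 5, 6.31) and the chaperone gene Hsph1 (animal 6, 12.87). Sleep deprived arrays stood apart in Nfkbiz (animal 6, 4.83), the cortical marker Fezf2 (animal 7, 8.96), Cplane2 (animal 8, 5.47), Calr (animal 9, 11.62), Mgat2 (animal 9, 6.76), Pgam1 (animal 10, 13.34), Spred3 (animal 11, 7.82) and Trabd (animal 11, 7.76).

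In 18 of the 115 named genes the change after sleep deprivation differed between the bound and unbound fractions of the same animals by limma's test of the difference (adjusted p under 0.05, signed as bound change minus unbound change). Over all 13924 genes tested, 671 were called (4.82%). Most named genes were chosen by their unbound change, a term of the difference, which favours a larger share among them. The bound change was the more positive for Pdlim3 (2.20), Cdkn1a (2.12), Fkbp5 (1.43), Kif1c (1.42), Pcdhb5 (1.32), Zfp688 (1.24), Mgat2 (1.23), Mt2 (1.07) and Kcne2 (1.03). The unbound change was the more positive for Irf9 (−2.60), Rnf138rt1 (−2.42), B4galt1 (−2.37), Fosb (−2.08), Foxj1 (−1.90), Dmkn (−1.71), Prr5 (−1.67), Gjb6 (−1.32) and Ky (−0.85). For Ky the difference was not called after each array was centred on its median gene (adjusted p = 0.087).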

How the results depend on the processing

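The count of 1384 called genes (1177 higher, 207 lower) became 545 (255 higher) with each array centred on its median gene, 560 (277 higher) after quantile normalization, 2771 (2039 higher, 732 lower) with no filter on dim genes, 710 (605 higher, 105 lower) without the 3 animals set apart by sex-linked genes and 488 (373 higher, 115 lower) at 1.5-fold or more; a stricter filter left 93 lower. With 1 array left out it ran from 989 to 1165 (840 to 997 higher, 138 to 174 lower), and the difference in array level from 0.0754 to 0.0773. Genes whose change differed between fractions numbered 475 with each array centred on its median gene, 254 without the 3 animals and 471 to 567 with 1 animal left out. Dropping the replicate block of that test, so that an animal's 2 arrays counted as independent, gave 721 against 671; sleep deprivation against waking could not be paired, because their animals shared only the number 6. Of 115 named genes, 66 kept direction and call after centring and 66 after quantile normalization, 111 without the filter, 102 in a fit of the 12 arrays alone, 93 without the intensity trend and 78 without the 3 animals. The mean of all probe sets turned the sign of Ddit3 (−0.495), Flt1 (0.093), Nars (0.032), Npas2 (0.121), Per2 (0.086) and Rps4x (−0.062), quantile normalization that of Egr1 (−0.002), and a probe set chosen over the 12 arrays that of Plekhg1 (−0.082). Sult1a1 changed sign to −0.039 after centring and −0.038 after quantile normalization, and ran from −0.008 to 0.247 with 1 array left out. Leaving the 3 animals out also removes arrays, and the cause of the other moves was not tested. Of the 1393 dimmest genes 10.1% were called after centring, against 3.80% of the 1393 brightest, and the reason was not tested. Dim genes call for more caution: levels of the dimmest group began at 2.64, below the unbound filter level of 5.18, so some entered through the bound fraction.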
